A study of Rattus norvegicus with 24 samples.

Results

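The 10 genes described here mark astrocytes or carry their glutamate uptake: Gfap, Aqp4, Slc1a2, Slc1a3, Aldh1l1, Gja1, Gjb6, S100b, Sox9 and Aldoc. They were looked up by symbol, with no limit on their level or change, and all 10 were found among the 32545 genes measured. Each gene is described in 24 libraries of bulk RNA from the nucleus accumbens (NAc), 4 libraries in each of 6 groups. All rats were adult male Sprague Dawley, 8 weeks old on arrival, with no genetic modification named for any group, and each library came from 1 rat.

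In the injection experiment, rats first received 5 intraperitoneal injections of either LPS at 250 µg/kg or saline over about 2 weeks. LPS is a bacterial cell wall component that activates the immune system. Heroin, rising from 1 to 5 mg/kg, or saline was then injected on 5 days, and the rats were killed about 1 h after the last injection. The 4 groups are named by pretreatment and then treatment. They are LPS-Heroin, Saline-Heroin, LPS-Saline and Saline-Saline. In the self-administration experiment, rats with a jugular catheter took heroin at 0.075 mg/kg per infusion (Heroin-SA) or saline (Saline-SA) in 10 sessions of 6 h, without LPS. They were killed directly after the last session. The self-administering rats were housed singly on a reversed light cycle, whereas injected rats lived in pairs on a normal one. After the last injection, the injected rats were also placed briefly in a locomotor chamber before death. Route, surgery, housing, light cycle, chamber exposure and time of death therefore cannot be told apart between the experiments.

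Astrocytes clear glutamate from the synapse through 2 transporters of the plasma membrane, encoded by Slc1a2 and Slc1a3, and turn it into glutamine that neurons take back up. They are coupled to each other by gap junctions, wrap blood vessels with endfeet rich in the water channel Aqp4, and raise the filament protein Gfap when they become reactive. In the accumbens, loss of glial glutamate uptake is a known feature of rodent models of drug seeking. In bulk tissue, fewer astrocytes and less RNA per astrocyte cannot be told apart.

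Libraries held 12312878 to 18850240 reads on genes. The tissue markers of the striatum were present in every library, with Drd1 at 41.1 to 103 FPKM, Drd2 at 24.6 to 91.9 FPKM and Ppp1r1b at 488 to 1452 FPKM. FPKM are fragments scaled by gene length and by the reads of the library, a scale that allows levels to be compared between genes. Markers of neighbouring tissue were uneven between libraries. Genes of choroid plexus and ependyma summed to 382 FPKM in Saline-Saline replicate 1 and to between 12.7 and 47.6 FPKM in the other libraries. Markers of cortical neurons summed to 509 to 563 FPKM in LPS-Heroin, above the 182 to 380.5 FPKM of Saline-Saline, and spanned 132 to 597 FPKM in the other groups. Mitochondrial genes took 6.82 to 9.10% of the reads in the injected rats and 10.0 to 15.9% in the self-administering rats. The part of these differences in the results below was not tested.

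The upstream sequences of the glutamate transporters are shown because these genes form the uptake pair and were the most and the least variable of the 10 over the libraries. RefSeq promoter windows of the GRCr8 assembly held 9 of the 10 genes, and Sox9 had no entry. The 250 bases before the transcription start that lies farthest upstream are printed 5′ to 3′ on the strand of the gene. Slc1a2 lies on the plus strand at chr3:109459859-109460108 and Slc1a3 on the minus strand at chr2:59557809-59558058. Capitals mark the core of SOX binding sites, searched as ACAAAG and ACAATG on both strands.
Slc1a2: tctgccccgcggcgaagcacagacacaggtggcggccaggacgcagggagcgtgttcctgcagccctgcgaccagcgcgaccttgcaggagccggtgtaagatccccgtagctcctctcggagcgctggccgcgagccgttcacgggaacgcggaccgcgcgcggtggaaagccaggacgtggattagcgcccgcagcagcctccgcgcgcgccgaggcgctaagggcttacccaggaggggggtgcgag
Slc1a3: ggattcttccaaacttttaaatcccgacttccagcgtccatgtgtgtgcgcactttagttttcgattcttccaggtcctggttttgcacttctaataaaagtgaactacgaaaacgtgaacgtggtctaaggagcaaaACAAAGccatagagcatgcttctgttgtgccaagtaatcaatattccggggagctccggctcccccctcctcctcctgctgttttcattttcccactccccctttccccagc
The Slc1a2 window was 71.2% G and C against 48.0% in Slc1a3. The single match lay in Slc1a3, 112 bases before the start. Of the 33469 promoter windows of the table, 25.3% held one of these letter strings in their first 250 bases, so a match among 9 genes is a description of the sequence only.

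Levels per length differed widely between the 10 genes. S100b, a calcium-binding protein that is also present in oligodendrocytes, had the highest level, with a mean of 751 FPKM over the 24 libraries, followed by the glycolytic enzyme Aldoc at 442 FPKM. Slc1a3 averaged 152 FPKM, Gfap 135 FPKM, Gja1 107 FPKM, Slc1a2 89.6 FPKM and Aqp4 70.3 FPKM. The gap junction gene Gjb6 averaged 16.1 FPKM, the folate enzyme Aldh1l1 4.84 FPKM and the transcription factor Sox9 4.11 FPKM. Aldh1l1 and Sox9 rested on 125 to 294 and 111 to 329 reads per library, so their values are the least precise. Steadiness differed as much as level. The highest library exceeded the lowest 1.39-fold for Slc1a3 and 1.50-fold for Gja1, but 4.25-fold for Gjb6 and 8.18-fold for Slc1a2.

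**Figure D1:**
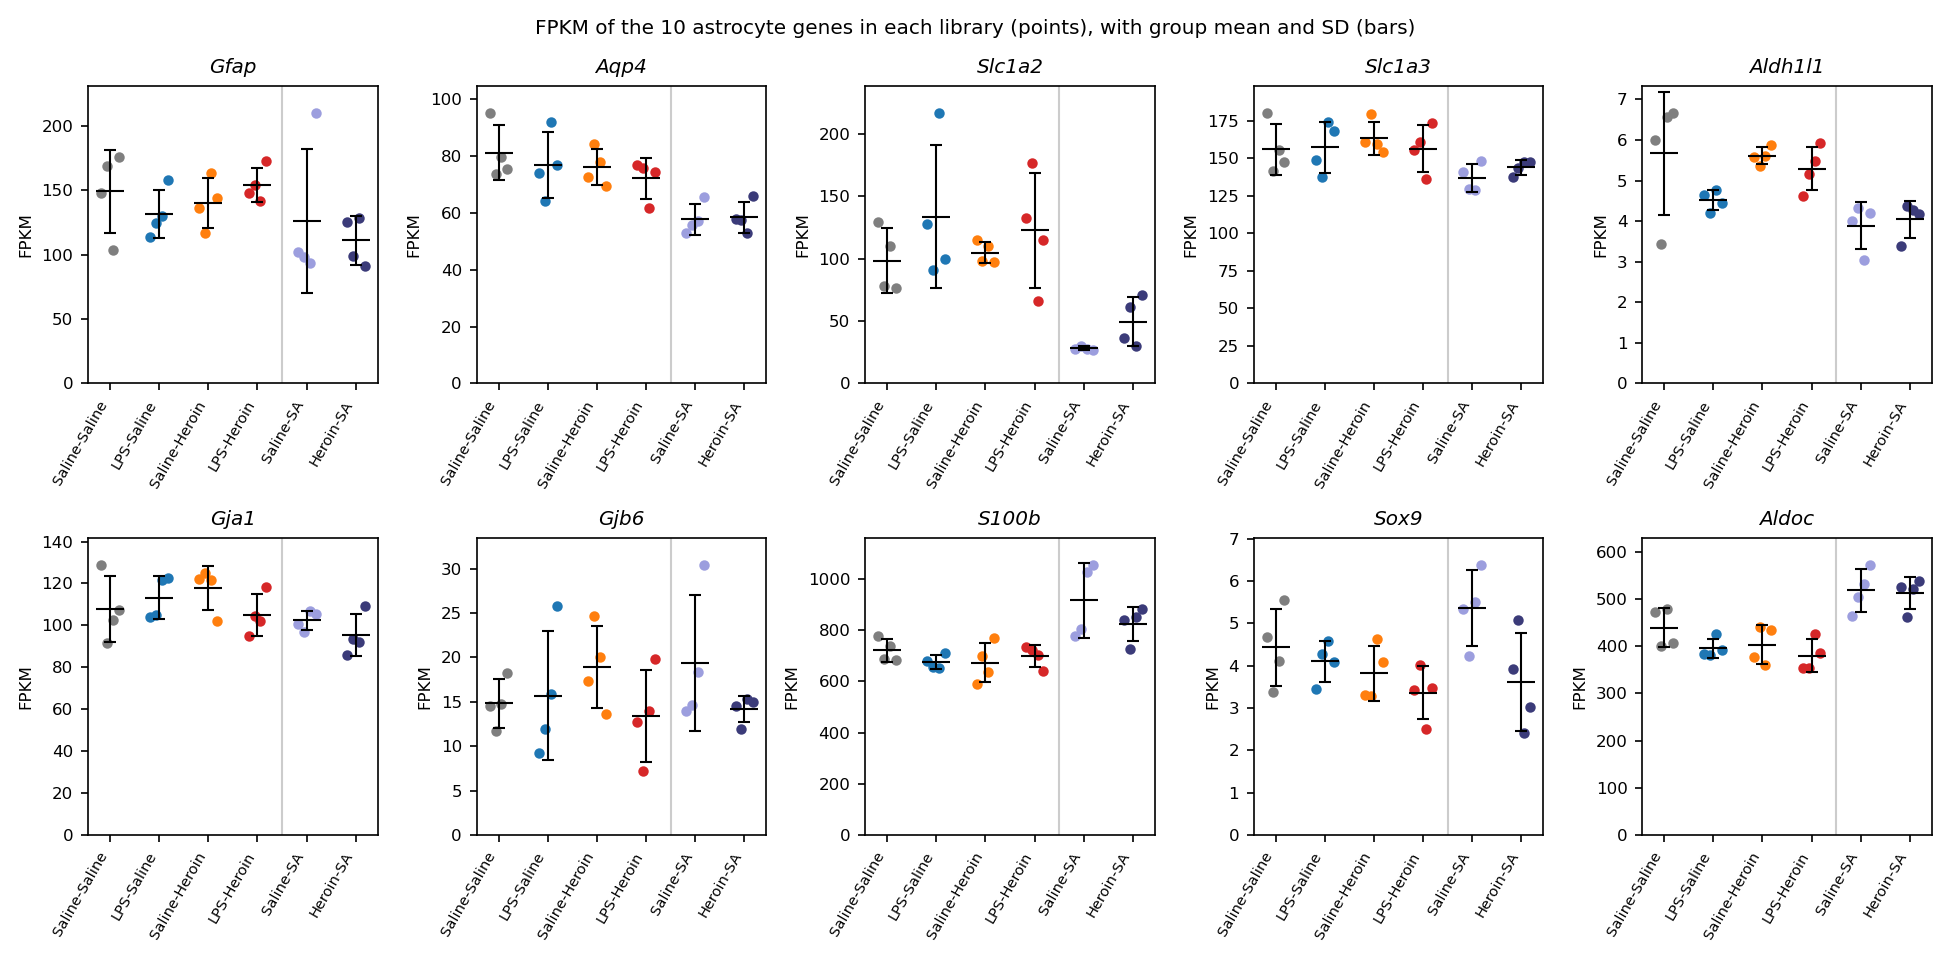
FPKM of each gene (y axis, linear from 0) in the 4 libraries of each group, shown as points, with the group mean and SD as black bars; the grey line parts the injection groups from the self-administration groups. Slc1a2 lay at 26.5 to 71.1 FPKM in the 8 self-administering rats and at 66.1 to 217 FPKM in the 16 injected rats, while Slc1a3 spanned 129 to 180.1 FPKM over all 24.

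The question put here to the injection experiment was whether LPS, heroin or both together shift astrocyte genes. Among the 10 genes, no shift by LPS alone or heroin alone passed the limit used here, an unadjusted limma p of at most 0.05. LPS-Saline against Saline-Saline called 0 of 10, beside 6.63% of the 15119 genes tested. Saline-Heroin against Saline-Saline called 0 of 10, beside 6.57% of all genes tested. LPS-Heroin against Saline-Saline called 1 of 10, the lower level of Aldoc, beside 11.3% of all genes tested, of which 4.81% were lower. LPS-Heroin called 0 of 10 against LPS-Saline and 0 of 10 against Saline-Heroin, beside 4.60% and 4.21% of all genes. These comparisons share libraries, Saline-Saline among them. In the 16 libraries fitted as 2 factors, 0 of 10 passed for LPS (background 6.67%), 0 of 10 for heroin (8.11%) and 0 of 10 for their interaction (4.02%). No gene of the whole table had an adjusted p under 0.05 in any of these comparisons, by limma-trend or by limma-voom on recovered reads. At an unadjusted p of at most 0.05, limma-trend called 607 to 1704 genes and limma-voom 574 to 1751.

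For glutamate uptake, the RNA levels of Slc1a2 and Slc1a3 were measured, not uptake itself. Slc1a2, which carries most forebrain glutamate uptake, had 129.8, 77.9, 109.9 and 76.6 FPKM in Saline-Saline and 128, 90.9, 217 and 99.7 FPKM in LPS-Saline. It had 115, 98.1, 109.8 and 97.2 FPKM in Saline-Heroin and 132, 177, 66.1 and 115 FPKM in LPS-Heroin. All 4 groups overlapped, and the highest libraries were LPS-Saline replicate 3 and LPS-Heroin replicate 2. The log2 differences from Saline-Saline were 0.39 (95% interval -0.24 to 1.02) for LPS-Saline, 0.12 (-0.25 to 0.50) for Saline-Heroin and 0.27 (-0.39 to 0.93) for LPS-Heroin. The listed gene model of Slc1a2 (ENSRNOG00000005479, rn6 chr3:92640752-92665644) counts only 882 bases, shorter than all but 17.6% of protein-coding genes, and rested on 335 to 2936 reads. Its values thus cover that model and no other part of the transcript.

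Slc1a3 (ENSRNOG00000016163, chr2:57860834-57935363), the transporter already present in radial glia, was the steadiest of the 10. Its mean was 156 ± 16.9 FPKM (SD, n = 4) in Saline-Saline. Mean levels were 163 ± 10.9 FPKM in Saline-Heroin, 157 ± 17.0 FPKM in LPS-Saline and 156 ± 15.6 FPKM in LPS-Heroin. The log2 differences from Saline-Saline were 0.01 in LPS-Saline (95% interval -0.21 to 0.24), 0.07 in Saline-Heroin (-0.12 to 0.26) and 0.0042 in LPS-Heroin (-0.21 to 0.22).

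Gfap (ENSRNOG00000002919, chr10:90990762-90999435), the intermediate filament used to stain reactive astrocytes, had 148, 169, 104 and 176 FPKM in Saline-Saline. It had 113, 124, 130.3 and 158 FPKM in LPS-Saline, 136, 117, 164 and 144 FPKM in Saline-Heroin and 148, 154, 142 and 172 FPKM in LPS-Heroin. The groups overlapped throughout. The comparison nearest the limit was LPS-Heroin against LPS-Saline, with a log2 difference of 0.23 (95% interval -0.0034 to 0.47) and an adjusted p of 0.977 by limma with Benjamini-Hochberg adjustment. Of 29 genes listed as markers of reactive astrocytes, 17 to 20 were expressed highly enough to be tested. The calls among them were 0 for LPS-Saline against Saline-Saline, 2 of 18 for Saline-Heroin and 1 of 17 for LPS-Heroin, with none lower. The last 2 are 11.1% and 5.88%, beside 6.57% and 11.3% of all genes. Emp1, a membrane protein, was higher in both injected heroin groups (log2 difference 0.93, SE 0.31, adjusted p = 0.750 in Saline-Heroin, and 0.70, SE 0.29, adjusted p = 0.420 in LPS-Heroin). Both comparisons share Saline-Saline at 1.12 ± 0.456 FPKM, and LPS-Saline, without heroin, had a mean of 1.91 ± 1.27 FPKM against 1.78 ± 0.221 FPKM in LPS-Heroin (SD, n = 4). Emp1 was also higher in Heroin-SA than in Saline-SA, without overlap (1.93 ± 0.272 against 1.25 ± 0.347 FPKM, SD, n = 4). The log2 difference there was 0.61 (SE 0.23, adjusted p = 0.395 by limma). It was the only call among the 20 reactive genes tested in that comparison, 5% beside 11.5% of all genes. The small heat shock protein Hspb1 was higher in Saline-Heroin (0.68, SE 0.27, adjusted p = 0.750).

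Aqp4 (ENSRNOG00000016043, chr18:6765945-6782996), the water channel of the endfeet, had a mean of 81.0 ± 9.67 FPKM in Saline-Saline (SD, n = 4). With a treatment it was 76.0 ± 6.42 FPKM in Saline-Heroin, 76.7 ± 11.5 FPKM in LPS-Saline and 72.1 ± 7.14 FPKM in LPS-Heroin. Each step in this order was smaller than the SD. Genes of the endfoot complex with a test numbered 11, and 1 of them passed for Saline-Heroin against Saline-Saline, with 0 for the other 2 treated groups. That share of 9.09% stands beside 6.57% of all genes. The gene that passed was the potassium channel Kcnj10, lower in Saline-Heroin (24.2 ± 3.01 against 29.1 ± 2.39 FPKM, SD, n = 4). Its log2 difference was -0.27 (SE 0.099, adjusted p = 0.750 by limma).

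The gap junction genes Gja1 (ENSRNOG00000000805, chr20:37876650-37889089) and Gjb6 (ENSRNOG00000022116, chr15:37400889-37410848) encode the connexins that join astrocytes. Gja1 had means between 105 and 118 FPKM in the 4 injection groups, with SDs of 9.90 to 15.7. Gjb6 was far more uneven, with 14.5, 11.7, 14.7 and 18.3 FPKM in Saline-Saline and 9.22, 11.95, 15.9 and 25.8 FPKM in LPS-Saline. It had 17.3, 24.6, 20.0 and 13.6 FPKM in Saline-Heroin and 12.7, 7.17, 14.0 and 19.9 FPKM in LPS-Heroin. The groups overlapped for both genes. The largest difference for Gjb6 between injection groups was -0.55 on the log2 scale between LPS-Heroin and Saline-Heroin (95% interval -1.21 to 0.12). Of the 8 other gap junction genes tested, the oligodendrocyte connexin Gjc3 was lower in Saline-Heroin than in Saline-Saline (log2 difference -0.53, SE 0.23, adjusted p = 0.750). Summed oligodendrocyte markers had a median of 4771 FPKM in Saline-Heroin and 6724 FPKM in Saline-Saline, and their part in that difference was not tested.

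Aldoc (ENSRNOG00000011452, chr10:65586504-65590126), the brain form of the glycolytic enzyme aldolase, had 472, 401, 478 and 407 FPKM in Saline-Saline and 354, 354, 427 and 387 FPKM in LPS-Heroin. Replicate 3 of LPS-Heroin lay above 2 of the Saline-Saline libraries, so the groups overlapped. The log2 difference was -0.21 (SE 0.089, p = 0.0438 by limma, adjusted p = 0.430), and the exact two-sided permutation p over the 8 libraries was 0.114. The call was lost without Saline-Saline replicate 1 or 3 or without LPS-Heroin replicate 1, 2 or 4, where the highest p was 0.114 and the difference ranged from -0.27 to -0.17. Markers of cortical neurons moved the other way, with 7 of 9 higher in LPS-Heroin, beside 6.45% of all genes, and library sums that did not overlap, and their part in the difference was not tested. Aldoc had 384, 381, 425 and 393 FPKM in LPS-Saline and 378, 442, 359.7 and 435 FPKM in Saline-Heroin.

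Of the remaining 3 genes, S100b and Sox9 overlapped between all injection groups, and Aldh1l1 overlapped between each treated group and Saline-Saline. S100b (ENSRNOG00000001295, chr20:13130636-13142856) had means of 673 to 721 FPKM. Aldh1l1 (ENSRNOG00000047023, chr4:123516788-123557501), which is used to label astrocytes as a class, had 5.99, 3.45, 6.58 and 6.66 FPKM in Saline-Saline. Replicate 2 stood low there, and without it Aldh1l1 passed the unadjusted limit in LPS-Saline and in LPS-Heroin against Saline-Saline. Sox9 (ENSRNOG00000002607, chr10:101288489-101293379), a factor that sets astrocyte fate, had a mean of 4.43 ± 0.919 FPKM in Saline-Saline (SD, n = 4). It was 3.36 ± 0.627 FPKM in LPS-Heroin, 3.82 ± 0.652 FPKM in Saline-Heroin and 4.10 ± 0.481 FPKM in LPS-Saline. The LPS-Heroin difference from Saline-Saline was -0.39 on the log2 scale (95% interval -0.82 to 0.043).

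**Figure D2:**
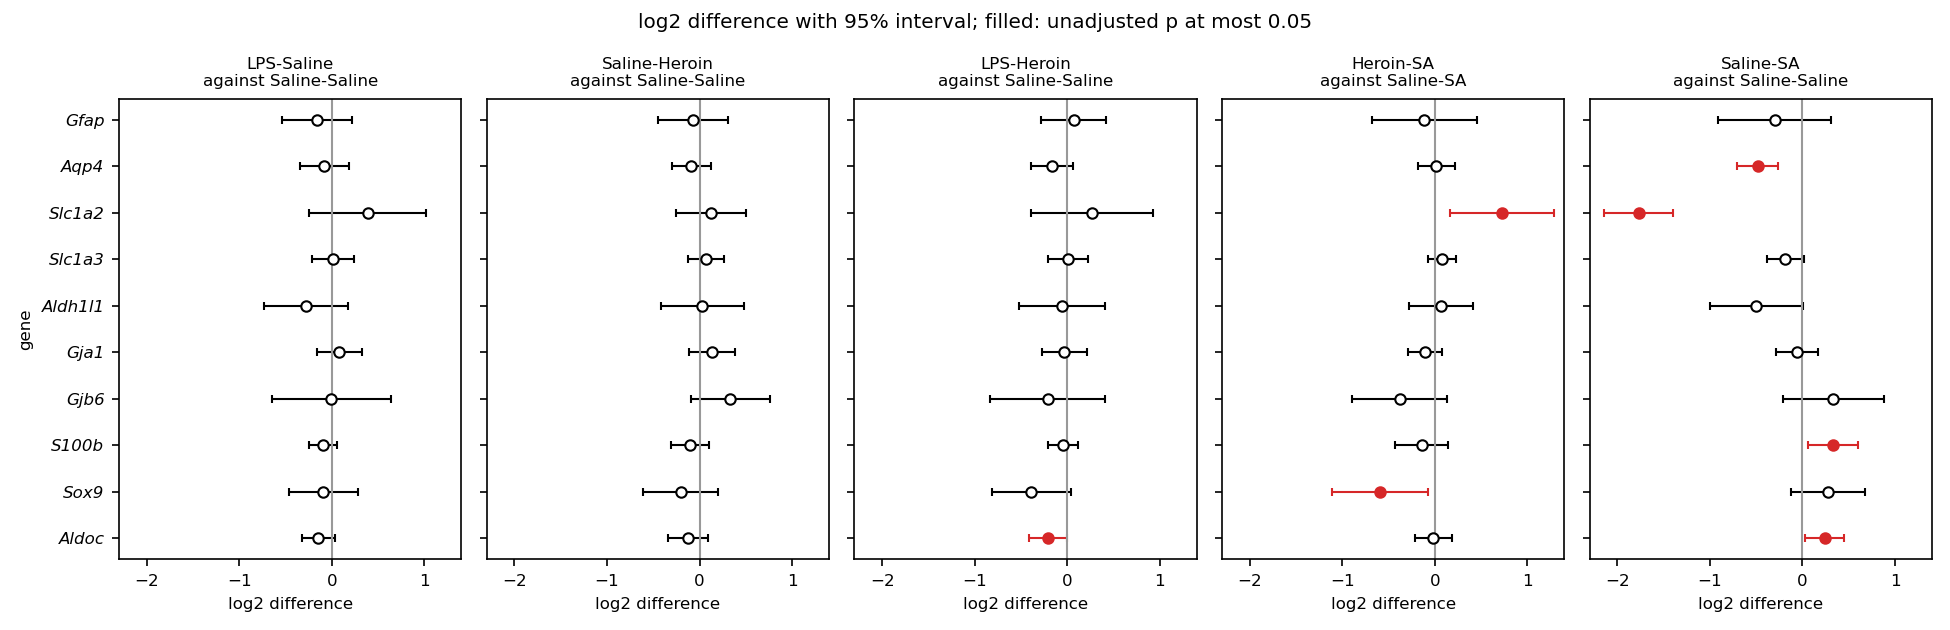
log2 difference (x axis) of each gene with its 95% interval in 5 comparisons; filled red points have an unadjusted p of at most 0.05. The filled points are Aldoc in LPS-Heroin, Slc1a2 and Sox9 in Heroin-SA, and Aqp4, Slc1a2, S100b and Aldoc between the saline groups of both experiments, where Slc1a2 reaches -1.77.

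A wider list of astrocyte genes was described beside the 10. Of 33 other astrocyte genes tested, 9 passed in LPS-Heroin against Saline-Saline and all 9 were lower, a share of 27.3% beside the 4.81% of all genes that were lower. The median log2 difference of the list was -0.18, that of the 10 genes -0.05 and that of all genes 5.9e-04. Against Saline-Saline, the counts were 1 of 33 for LPS-Saline and 2 of 33 for Saline-Heroin, all lower. These shares of 3.03% and 6.06% stand beside 6.63% and 6.57% of all genes. LPS-Heroin had 3 of 33 against LPS-Saline, 1 higher and 2 lower. Against Saline-Heroin it had 3 of 33, 2 higher and 1 lower. Both shares are 9.09%, beside 4.60% and 4.21% of all genes. Whether the groups' counts differ was not tested. Slc6a11, the astrocyte GABA transporter, had 44.2, 35.9, 48.4 and 35.2 FPKM in Saline-Saline and 21.8, 17.7, 23.2 and 25.9 FPKM in LPS-Heroin. The groups did not overlap, and the log2 difference was -0.88 (SE 0.14, adjusted p = 0.144 by limma). Atp1b2, a subunit of the sodium pump that drives glutamate uptake, had 131, 114, 130.3 and 129.7 FPKM in Saline-Saline and 84.8, 74.3, 92.6 and 97.3 FPKM in LPS-Heroin (log2 difference -0.54, SE 0.090, adjusted p = 0.144). These groups did not overlap either. Leaving out each of the 8 libraries in turn gave 9 to 14 passing genes, of which 9 to 13 were lower, and the count of 14 came without Saline-Saline replicate 2.

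The same list had 8 of 33 genes lower and 0 higher for heroin over the 16 injected rats, 24.2% beside 4.02% of all genes lower, and the count was 5 to 10 as each library was left out. It was lowest, at 5, without LPS-Saline replicate 3 or without Saline-Heroin replicate 1. Slc6a11 also varied widely within groups. It had 20.7, 33.1, 65.0 and 25.1 FPKM in LPS-Saline and 22.1, 48.9, 19.1 and 25.4 FPKM in Saline-Heroin. The libraries highest in Slc6a11, replicate 3 of LPS-Saline and replicate 2 of Saline-Heroin, had the lowest cortical sums of their groups, 179.8 and 247 FPKM, where the others lay between 459 and 597 FPKM. The part of cortical tissue in the list's counts was not tested.

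Fabp7, a fatty acid binding protein of immature glia, ran against the list. It had 105, 90.6, 103 and 87.6 FPKM in LPS-Heroin, without overlap with the 61.3 to 81.6 FPKM of LPS-Saline or the 62.7 to 81.2 FPKM of Saline-Heroin. The LPS by heroin interaction was 0.69 on the log2 scale (SE 0.19, adjusted p = 0.992), and Saline-Saline spanned 61.2 to 102 FPKM.

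Of 22 genes of glutamate synthesis, transport and glutamine cycling, 5 passed in LPS-Heroin against Saline-Saline, 2 in Saline-Heroin and 3 in LPS-Saline. These are 22.7%, 9.09% and 13.6% of the list, beside 11.3%, 6.57% and 6.63% of all genes. The count of 5 was 3 without Saline-Saline replicate 1. Slc17a7, a vesicular glutamate transporter of cortical inputs, was higher in LPS-Heroin (log2 difference 1.22, SE 0.34, adjusted p = 0.231). Slc17a7 marks cortical neurons as much as it does transport, and its levels ranged from 73.8 to 227 FPKM in Saline-Saline and from 280.5 to 374 FPKM in LPS-Heroin. Glul, the astrocyte enzyme that makes glutamine, was lower in LPS-Heroin than in LPS-Saline (495 ± 12.1 against 604 ± 72.7 FPKM, SD, n = 4, log2 difference -0.28, adjusted p = 0.977). Slc1a4, a neutral amino acid transporter of the glutamate transporter family, was lower for heroin over the 16 rats (log2 difference -0.24, SE 0.052, adjusted p = 0.510).

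**Figure D3:**
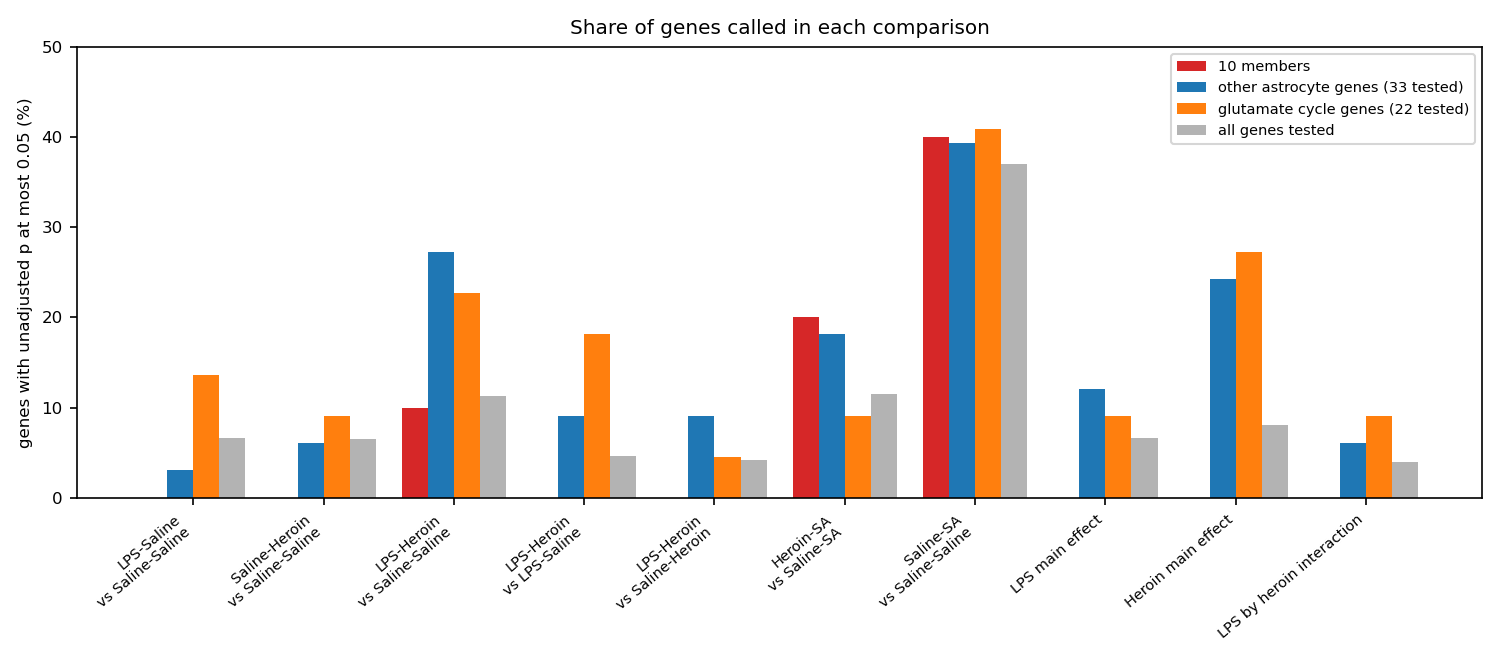
Percentage of genes with an unadjusted p of at most 0.05 (y axis) in each of the 10 comparisons, for the 10 astrocyte genes, 33 other astrocyte genes, 22 glutamate cycle genes and all genes tested. The 10 genes have no bar in the comparisons where 0 passed; the other astrocyte genes reach 27.3% in LPS-Heroin against Saline-Saline, where all genes reach 11.3%.

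The self-administration experiment was used here to compare the same genes between rats that took heroin and rats that took saline. Heroin-SA against Saline-SA called 2 of 10, the higher Slc1a2 and the lower Sox9, beside 11.5% of the 15024 genes tested. Neither passed an adjusted p of 0.05, and no gene of the table did by limma-trend (1725 at an unadjusted p of at most 0.05) or by limma-voom (1615).

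Slc1a2 had 27.9, 30.4, 27.7 and 26.5 FPKM in Saline-SA and 36.3, 61.0, 29.9 and 71.1 FPKM in Heroin-SA. Saline-SA was tight, Heroin-SA was split between replicates 2 and 4, which were high, and replicates 1 and 3, of which replicate 3 lay below the highest saline library. The log2 difference was 0.73 (SE 0.25, 95% interval 0.16 to 1.29, adjusted p = 0.357 by limma). The exact two-sided permutation p over the 8 libraries was 0.0571, where 0.0286 is the smallest such a design allows. The call was kept in 8 of 8 leave-one-out fits, with differences of 0.53 to 0.94. The same replicates 2 and 4 were high in Kcnj10, the potassium channel of astrocytes, with 15.8, 23.7, 9.86 and 25.9 FPKM in Heroin-SA and 11.1 to 14.2 FPKM in Saline-SA. The cortical sum was 428 FPKM in replicate 2 and 142 FPKM in replicate 4, and its part in the split was not tested.

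Sox9 had 5.34, 4.22, 5.50 and 6.39 FPKM in Saline-SA and 3.92, 5.09, 2.42 and 3.01 FPKM in Heroin-SA. Replicate 2 of Heroin-SA lay within the saline range. The log2 difference was -0.60 (SE 0.23, p = 0.0289, adjusted p = 0.395 by limma), and the exact permutation p was 0.0571. The call was lost without Saline-SA replicate 1, 3 or 4 or without Heroin-SA replicate 3 or 4, with differences of -0.77 to -0.43 over all 8 fits.

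The other 8 genes overlapped between Heroin-SA and Saline-SA. Slc1a3 was 144 ± 4.96 against 137 ± 9.42 FPKM (SD, n = 4), a log2 difference of 0.07 with a 95% interval of -0.079 to 0.22. Aqp4 was 58.4 ± 5.42 against 57.7 ± 5.42 FPKM. Gfap had 126, 98.8, 129 and 90.9 FPKM in Heroin-SA and 102, 98.2, 93.9 and 209.9 FPKM in Saline-SA, where replicate 4 stood far above the rest. Gjb6 was high in the same rat, with 14.0, 14.7, 18.4 and 30.5 FPKM in Saline-SA against 11.99 to 15.3 FPKM in Heroin-SA.

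Of the 33 other astrocyte genes, 6 passed between Heroin-SA and Saline-SA, 3 higher and 3 lower, a share of 18.2% beside 11.5% of all genes. Agt, the angiotensin precursor made by astrocytes, was lower (33.1 ± 9.43 against 66.2 ± 19.3 FPKM, SD, n = 4, log2 difference -0.98, SE 0.26, adjusted p = 0.331). The secreted protease Htra1 was higher without overlap (75.4 ± 4.84 against 61.9 ± 5.05 FPKM, SD, n = 4). The count was 4 to 9 as each library was left out, and 9 without Saline-SA replicate 1. The median log2 difference of the list was -0.02, beside -0.06 for the 10 genes and 0.0089 for all genes. In the glutamate cycle list, 2 of 22 passed, 9.09% of the list and below the share of all genes, and 4 did without Saline-SA replicate 1. Slc38a2, a glutamine transporter that supplies neurons, had 50.2, 48.4, 45.0 and 57.3 FPKM in Heroin-SA and 28.6, 31.5, 29.5 and 32.6 FPKM in Saline-SA. The groups lay far apart, with a log2 difference of 0.71 (SE 0.085, adjusted p = 0.115 by limma). In the injection groups Slc38a2 lay between 33.7 and 50.5 FPKM. Means were 38.8 FPKM in Saline-Saline, 39.2 FPKM in Saline-Heroin, 44.1 FPKM in LPS-Saline and 37.1 FPKM in LPS-Heroin. There it was lower in LPS-Heroin than in LPS-Saline without overlap (log2 difference -0.24, SE 0.078, adjusted p = 0.977 by limma). Glud1, the enzyme that burns glutamate in mitochondria, was lower in Heroin-SA (125 ± 2.98 against 139 ± 3.04 FPKM, SD, n = 4). Mitochondrial reads were 10.8 ± 0.743% in Heroin-SA and 12.9 ± 2.47% in Saline-SA, and their part in these values was not tested.

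The saline groups of both experiments were also compared. Saline-SA against Saline-Saline called 4 of 10, beside 37.0% of the 15150 genes tested, and 2 of these 4 were lower, beside 19.9% of all genes. With an adjusted p under 0.05, 2 of 10 passed beside 23.7% of all genes, and 3 of 10 had groups without overlap beside 28.3%. The share among the 10 genes is thus near that of the table. Slc1a2 was 28.1 ± 1.63 FPKM in Saline-SA and 98.5 ± 25.9 FPKM in Saline-Saline (SD, n = 4), a log2 difference of -1.77 (SE 0.16, adjusted p = 3.0e-04 by limma). Aqp4 had 52.7, 55.6, 57.2 and 65.4 FPKM in Saline-SA against 95.0, 73.7, 79.7 and 75.5 FPKM, a log2 difference of -0.48 (adjusted p = 0.00887). Neither of these overlapped.

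S100b and Aldoc were higher in Saline-SA. S100b had 778, 804, 1026 and 1056 FPKM against 684 to 777 FPKM in Saline-Saline (log2 difference 0.33, adjusted p = 0.0750), and Aldoc had 465 to 573 FPKM against 401 to 478 FPKM (0.24, adjusted p = 0.101). The S100b groups did not overlap and the Aldoc groups did. Both calls were lost with quantile normalization, where the differences were 0.17 and 0.15, and that of Aldoc also with limma-voom and with the replicate block. The S100b call was lost without Saline-Saline replicate 2 or 4 or without Saline-SA replicate 3 or 4 (differences of 0.26 to 0.41 over all 8 fits). The Aldoc call was lost without any of these libraries or without Saline-SA replicate 2 (0.19 to 0.29). The calls of Slc1a2 and Aqp4 were kept in all 8 settings. Striatal neuron and endothelial markers were higher in Saline-SA for 7 of 12 and 4 of 6 genes, beside 17.0% of all genes, and oligodendrocyte markers lower for 7 of 10, beside 19.9%. Their part in the differences was not tested.

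The genes with the smallest p in the other lists were mostly lower in Saline-SA. Kcnj10 was 12.7 ± 1.30 against 29.1 ± 2.39 FPKM (SD, n = 4), a log2 difference of -1.19 (adjusted p = 1.7e-04). The bicarbonate transporter Slc4a4 was lower by a log2 difference of -1.26 (adjusted p = 9.4e-04). The glutamate receptors Grm3 and Grm5 differed by -0.89 (adjusted p = 5.9e-04) and -1.15 (adjusted p = 0.00147), and the oligodendrocyte connexin Gjc3 by -1.93 (adjusted p = 0.00186). The channel gene Panx2 was higher (log2 difference 0.41, adjusted p = 0.0228). Atp1b2 and Glul did not share the lower level, at 165 ± 45.6 against 126 ± 8.29 FPKM and 579 ± 44.5 against 577 ± 47.4 FPKM (SD, n = 4). The transporters Slc1a4 and Slc38a2 were lower in Saline-SA without overlap. Slc1a4 was 10.8 ± 0.639 against 13.6 ± 0.483 FPKM and Slc38a2 30.5 ± 1.8 against 38.8 ± 2.09 FPKM (SD, n = 4). Over the 33 other astrocyte genes, 13 passed, 4 higher and 9 lower, and over the 22 glutamate cycle genes 9 passed, 1 higher and 8 lower. These shares of 39.4% and 40.9% lie near the 37.0% of all genes, but the directions were uneven. The 9 of 33 and 8 of 22 lower stand beside 19.9% of all genes, and the 4 and 1 higher beside 17.0%. The endfoot list had 7 of 11, 3 higher and 4 lower, a share of 63.6%. The gap junction list had 3 of 8 (37.5%) and the reactive astrocyte list 3 of 19 (15.8%).

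Ranked by group mean, the 10 genes took different orders. Slc1a2, Aqp4, Slc1a3, Aldh1l1, Gja1 and Gfap had both self-administration groups at the bottom, and S100b and Aldoc had both at the top. Only 1 step between neighbouring groups in any of these orders had ranges that did not overlap, that of Slc1a2 from Saline-Saline to Heroin-SA. Gfap ran from a mean of 154 FPKM in LPS-Heroin to 111 FPKM in Heroin-SA with no step larger than the SD. For Gjb6 and Sox9 the highest mean was that of Saline-SA, at 19.4 and 5.36 FPKM, and the lowest that of LPS-Heroin, at 13.4 and 3.36 FPKM.

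Rats also differed within groups, and several of the 10 genes varied together. Deviations of log2(FPKM + 0.1) from the group means were compared over the 24 libraries in all 45 pairs, with 100000 permutations of the libraries within groups. The correlation was positive in 37 pairs, and 4 pairs had an adjusted p under 0.05. The closest pair was Aqp4 and Slc1a3, with Pearson's r of 0.80 (permutation p = 2.0e-04, adjusted p = 0.00900) and Spearman's rho of 0.73 (permutation p = 8.5e-04, adjusted p = 0.0382). Without the 2 libraries farthest out in Aqp4, r was 0.73. Aqp4 also went with Slc1a2 (r = 0.73, permutation p = 5.6e-04, adjusted p = 0.0126, rho = 0.64, permutation p = 0.00444) and Slc1a3 with Gja1 (r = 0.72, permutation p = 0.00114, adjusted p = 0.0171, rho = 0.65, permutation p = 0.00357). Without the 2 farthest libraries these were 0.64 and 0.69. The rank correlations of these 2 pairs and of the 4th, Aqp4 with Gja1, had an adjusted permutation p of 0.0615. The uptake pair itself, Slc1a2 and Slc1a3, had an r of 0.51 (permutation p = 0.0321, adjusted p = 0.181) and a rho of 0.45 (permutation p = 0.0487, adjusted p = 0.311).

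The pairs did not hold equally in both experiments. Aqp4 and Slc1a3 had an r of 0.91 over the 16 injected rats and 0.36 over the 8 self-administering rats, and Slc1a3 and Gja1 had 0.79 and 0.38. Aqp4 and Slc1a2 had 0.81 and 0.53, and Aqp4 and Gja1 0.64 in both. Whether these values differ between the experiments was not tested.

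The 10 genes were also set against the mean log2 level of 14 gene lists, 140 relations in all, of which 13 had an adjusted p under 0.05. Slc1a2 went with the endfoot list (r = 0.89, permutation p = 3.0e-05, adjusted p = 0.0042, rho = 0.86, adjusted p = 0.0112), and without the 2 farthest libraries r was 0.91. Gfap and Gjb6 went with the reactive astrocyte list, at an r of 0.76 (permutation p = 1.4e-04, adjusted p = 0.00887) and 0.79 (permutation p = 6.4e-04, adjusted p = 0.0207), with a rho of 0.77 and 0.71 and an adjusted p of 0.0207 for each. Without their 2 farthest libraries these r were 0.70 and 0.77. The reactive list summed to 192.6 FPKM in LPS-Saline replicate 4 and 162 FPKM in Saline-SA replicate 4, the libraries with the highest Gjb6, and to 178 FPKM in Saline-Heroin replicate 3, where Gjb6 was 20.0 FPKM. Aqp4 ran against the cortical list (r = -0.64, permutation p = 0.00344, adjusted p = 0.0463, rho = -0.72, permutation p = 9.0e-05, adjusted p = 0.0112), with -0.57 without the 2 farthest libraries. Aldoc followed the other astrocyte genes (r = 0.71, permutation p = 1.9e-04, adjusted p = 0.00887, rho = 0.73, adjusted p = 0.0112), and without its 2 farthest libraries r was 0.76. Over the injected and the self-administering rats, r was 0.87 and 0.96 for Slc1a2 with the endfoot list, 0.74 and 0.97 for Gfap and 0.75 and 0.94 for Gjb6 with the reactive list, and -0.71 and -0.62 for Aqp4 with the cortical list. Gja1 over the 24 libraries had an r of 0.65 with septum (rho = 0.50, adjusted permutation p of rho = 0.184). With ependyma and choroid plexus r was 0.73 (rho = 0.61, adjusted permutation p of rho = 0.0934). Without the 2 farthest libraries these r were 0.61 and 0.60. In the injected rats Gja1 had an r of 0.83 for septum and 0.81 for ependyma and choroid plexus, beside -0.059 and 0.35 in the self-administering rats. The difference between the experiments was not tested.

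**Figure D4:**
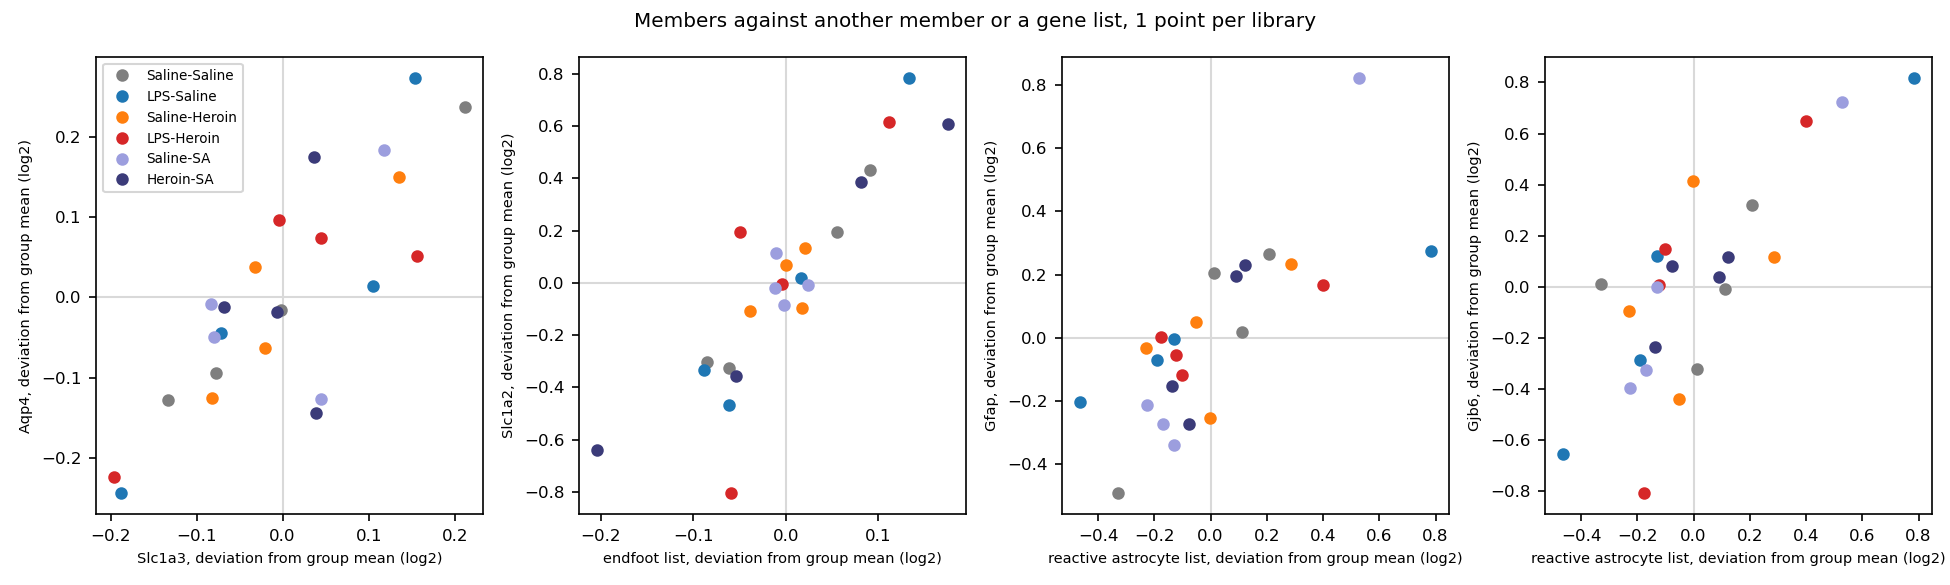
Deviation from the group mean on the log2 scale of Aqp4 against Slc1a3, Slc1a2 against the endfoot list, and Gfap and Gjb6 against the reactive astrocyte list; 1 point per library, coloured by group. The points slope upward in each panel, with r of 0.80, 0.89, 0.76 and 0.79 over the 24 libraries.

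The genes most alike in these deviations were looked up among 11732 expressed genes, as a description without a test. Slc1a2 was closest to Psd3 (r = 0.94) and the BMP receptor Bmpr1a (0.92). Psd3 showed the same split, with 3.33, 5.98, 2.90 and 7.12 FPKM in Heroin-SA, 2.98 to 3.36 FPKM in Saline-SA and 8.92 to 19.6 FPKM in the injected rats. Aldoc was closest to Ndrg2 (0.91), an astrocyte protein, and Gjb6 to Ucp2 (0.89). Aqp4 was closest to Paqr8 (0.88) and the endothelin receptor Ednrb (0.86), Slc1a3 to Idh2 (0.86) and Gfap to Kctd15 (0.83). Gja1 and Slc1a3 shared a near neighbour in Cbs, at 0.80 and 0.84. S100b (Fndc5, 0.79), Sox9 (Plekho2, 0.75) and Aldh1l1 (Apbb3, 0.68) had looser neighbours.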

How the data were processed

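Groups were taken from the labels. The authors deposited FPKM values, made by a provider from directional poly(A) libraries with fastp, HISAT2 (rn6, per the labels) and featureCounts. The strand setting was not given in the sources used here. FPKM times gene length was a whole number of reads (within 0.01 of a read) for 100% of values, and limma-voom on these reads was an alternative. The study's methods state 6 sequenced samples per group; values of 4 were used here.

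Differences were tested with limma 3.58.1 (trend) in R 4.3.3 on log2(FPKM + 0.1), over genes with a mean of at least 0.5 FPKM in the libraries fitted, 8 per pair of groups or 16 for the factors, with no covariate. Fold changes on this scale understate changes of low genes. Adjusted p-values are Benjamini-Hochberg over all genes tested. A gene was called at an unadjusted p of at most 0.05. The study's own test, which needs raw counts, was not run here, and limma on FPKM took its place. In tests, the recovered reads served limma-voom only.

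Members and lists were chosen with earlier results of these data known. All 10 members are named; of each astrocyte list, at most 2 genes with the smallest p per comparison, and of alike genes the 2 with the highest r. Some genes that this rule names are not reported here. Alternatives were a pseudocount of 1, other filters (none, or 1 FPKM), quantile or median scaling, 1 fit of all groups, the replicate block, and each library left out.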

Additional observations from a re-analysis of the deposited data

Results flagged for a closer look

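The 4 values of each gene in each of the 6 groups were examined for a sample far from the others, 60 sets of values in all, of which chance alone would mark about 1 in 20. In 3 sets, the gap of the highest or lowest sample to its neighbour, as a share of the whole range, was above the 95% limit of Dixon for 4 samples. Gfap was 209.9 FPKM in Saline-SA replicate 4 and 93.9 to 102 FPKM in the other 3 rats, and the reactive astrocyte list summed to 162 FPKM there. Aqp4 was 61.5 FPKM in LPS-Heroin replicate 3 and 74.5 to 76.8 FPKM in the others, and Slc1a2 was lowest in the same rat at 66.1 FPKM. Gja1 was 102 FPKM in Saline-Heroin replicate 4 and 122 to 125 FPKM in the others, and Gjb6 was lowest there too at 13.6 FPKM.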

How the results depend on the processing

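With 4 rats a group, the counts of the 10 genes passing an unadjusted p of at most 0.05 were small and moved easily. LPS-Heroin against Saline-Saline gave 0 without a filter on low values and 0 with equal medians. The LPS effect gave 1 by limma-voom (Aldoc) and the heroin effect 1 with quantile normalization (Sox9). Saline-SA against Saline-Saline gave 3 to 6 over all settings. No difference that passed the limit changed sign under any setting tried. Leaving out 1 library gave 0 to 2 genes for LPS-Saline, 0 to 1 for Saline-Heroin and 0 to 3 for LPS-Heroin against Saline-Saline. It gave 0 to 1 for LPS-Heroin against LPS-Saline, 0 to 2 against Saline-Heroin, 1 to 2 for Heroin-SA against Saline-SA and 2 to 4 for Saline-SA against Saline-Saline. For the LPS effect it gave 0 to 2, for the heroin effect 0 to 1 and for the interaction 0 to 2. The counts of 2 or more in comparisons with none came without Saline-Saline replicate 2, LPS-Heroin replicate 3 or 4, or Saline-Heroin replicate 4. The fits of the list counts without each library were chosen after seeing the data.

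Replicate numbers recur in the groups, but same-numbered rats did not deviate together. Correlations of their deviations ran from -0.150 to 0.154, and in 0 of 7 group pairs was every one over 0.1. With the replicate number as a block, LPS-Saline against Saline-Saline gave 1 (Slc1a2), LPS-Heroin against LPS-Saline 1 (Gfap), Heroin-SA against Saline-SA 1 (Slc1a2) and Saline-SA against Saline-Saline 5. The cause of these changes was not tested.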
